A study of Mus musculus with 16 samples.

Results

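The genes described here are 10 genes of excitation-contraction coupling and calcium handling in skeletal muscle, taken by symbol from the 21923 genes of the deposited table: Cacna1s, Stac3, Jph1, Ryr1, Atp2a1, Atp2a2, Sln, Casq1, Casq2, and Pvalb. Each had a single row, and all 10 passed the filter on low counts in every comparison. They were measured by poly(A) RNA-seq in the gastrocnemius, a calf muscle, of 16 mice that were 6 to 8 weeks old when obtained, before the tumor period. The NOR group was given PBS and no tumor on day 0. CAC mice received tumor cells under the skin of the flank and model cancer cachexia, the loss of body and muscle mass that accompanies a tumor. AM mice (titled T in the sample labels) carried the same tumors and were given the diuretic amiloride at 2 mg/kg. KD mice carried tumor cells in which lentiviral shRNAs, with a separate sequence for each gene, lowered Rab27a and Rab27b, genes of exosome release. Daily intraperitoneal injections began on day 9 in all 4 groups, with PBS in NOR, CAC, and KD, and muscle was taken on day 30. Each group held 4 mice, replicates 1 and 2 labelled C57BL/6, for which the tumor line was LLC (lung), and replicates 3 and 4 labelled BALB/c, for which it was CT26 (colon), so strain and tumor line cannot be told apart. The knock-down was made in the tumor cells, not in the muscle, and carries no check in these libraries.

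Contraction of a muscle fibre begins at the triad, where a fold of the surface membrane, the T-tubule, lies between terminal sacs of the sarcoplasmic reticulum. The dihydropyridine receptor (DHPR) in the T-tubule senses the action potential and opens the ryanodine receptor in the reticulum, calcium leaves the store and triggers contraction, and SERCA pumps return it. Calsequestrin holds calcium inside the store, and parvalbumin takes it up in the cytosol of fast fibres. The gastrocnemius of the mouse is mainly a fast muscle, in which the fast forms of these proteins dominate.

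The libraries held between 35913190 and 61032708 counted reads (median 47350534). Levels are given as FPKM (reads per kilobase of gene, scaled to library size, the deposited values, which allow genes to be set side by side), and fold changes come from the counts, on the log2 scale, each with a standard error (SE) and a false discovery rate (FDR) over all genes tested by edgeR's quasi-likelihood test. A gene was called a differentially expressed gene (DEG) when its FDR did not exceed 0.05 and its level was 1.5-fold or more higher or lower. Markers of skeletal muscle (5 of 5 genes) summed to between 33925 CPM (CAC replicate 3) and 100389 CPM (NOR replicate 1), with none at 0. In 5 libraries, NOR replicate 1, CAC replicates 1 and 4, and KD replicates 2 and 3, the B cell markers summed to between 0.279 and 2.46 CPM and the T cell markers to between 0.0930 and 0.806 CPM, against 22.3 to 281 and 9.99 to 102 CPM in the other 11, and values of Casq1, Stac3, Sln, and Pvalb are also given for those 11 alone, an alternative chosen after seeing the data. The library of KD replicate 3 held 0 counts of 4 Y-linked genes, which summed to between 111 and 174 CPM in the other libraries, and the KD vs. CAC values of the 10 genes are given with and without it.

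In the normal muscle the levels of the 10 genes spanned more than 3 orders of magnitude on the FPKM scale. Atp2a1, the fast SERCA pump, was the highest, with 13300.5 ± 1629.8 FPKM (SD, n = 4), followed by Pvalb with 5533 ± 679 and Casq1, the fast calsequestrin, with 2935 ± 447. Stac3, Ryr1, and Cacna1s, which together form the voltage-sensing and release step, lay close to each other with 207 ± 24.5, 181 ± 20.7, and 153 ± 18.8 FPKM, and the ranges of neighbours in that order overlapped. Atp2a2, the slow and cardiac pump, had 101 ± 27.9 FPKM, and its range overlapped that of Jph1 (64.8 ± 6.90). Casq2, the cardiac and slow calsequestrin, had 26.8 ± 9.23, and Sln, the small SERCA inhibitor sarcolipin, was the lowest with 4.08 ± 2.66. The plot of the 10 genes by mouse gives every level.

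**Figure D1:**
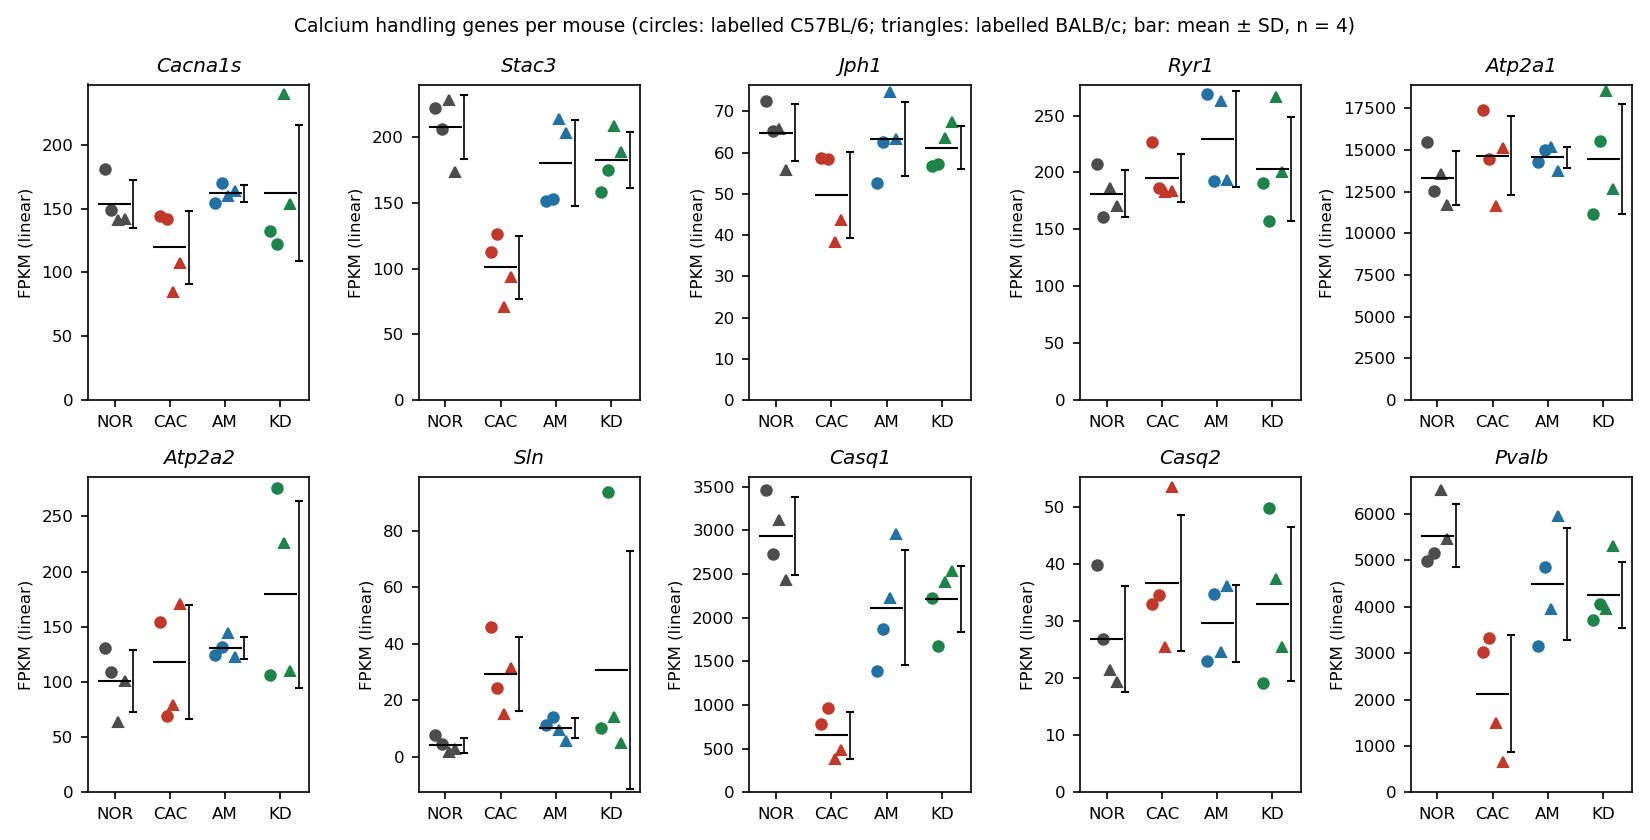
FPKM (linear axes) of the 10 calcium handling genes in each mouse of NOR, CAC, AM, and KD, with circles for mice labelled C57BL/6, triangles for mice labelled BALB/c, a line at the mean, and a bar of ± SD (n = 4). Casq1, Stac3, and Pvalb lie lower in all 4 CAC mice than in all 4 NOR mice, Sln lies higher, and KD replicate 2 stands above all other mice for Sln (94.0 FPKM).

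CAC vs. NOR asks what differed in the muscle of tumor-bearing mice. Casq1 was 4.81-fold lower, Stac3 was 2.21-fold lower, and Sln was 6.53-fold higher in CAC. These were the DEGs, 3 of the 10 genes, where 9.45% of the 14666 genes tested were DEGs (4.32% higher and 5.13% lower). At an unadjusted p under 0.05 there were 4 of 10 (29.1% of genes tested), and 4 of 10 had a log2 fold change above 0 (51.2%). In 4 of the 10, Pvalb being the other, the CAC and NOR mice did not overlap in CPM (1 higher and 3 lower), where 23.3% of genes tested did not overlap (12.5% higher and 10.8% lower). The median log2 fold change was -0.24 over the 10 genes and 0.01 over all genes tested. The release channel, both pumps, and the slow calsequestrin were not called. With the 11 libraries that held lymphocyte markers alone (3 NOR and 2 CAC mice), 1 of 10 was a DEG, Sln (2.70, FDR 0.0492), against 2.63% of genes tested, and the calls of Casq1 (-2.08, FDR 0.0838) and Stac3 (-1.11, FDR 0.133) were lost. Pvalb stood at -1.30 (FDR 0.158).

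Among the genes of the voltage sensor, Stac3, an adaptor that couples the DHPR to the release channel (ENSMUSG00000040287, GRCm38 chromosome 10, 127501686 to 127508823, plus strand, protein-coding), had 222, 206, 228, and 174 FPKM in NOR replicates 1 to 4 and 113, 127, 70.8, and 94.0 in CAC replicates 1 to 4. All CAC mice lay under the lowest NOR mouse. Its log2 fold change was -1.14 (SE 0.247, FDR 0.0206), and the exact permutation test over the 8 mice gave p = 0.0286, the smallest that 4 against 4 allow. The call was lost without NOR replicate 2 (FDR 0.0517) and without NOR replicate 3 (FDR 0.0602), with log2 fold changes of -1.18 and -1.11. It was -0.88 (FDR 0.0783) in the mice labelled C57BL/6 alone and -1.45 (FDR 0.150) in those labelled BALB/c alone.

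Cacna1s, the pore-forming and voltage-sensing subunit of the DHPR (ENSMUSG00000026407, chromosome 1, 136052750 to 136119822, plus strand), had 181, 149, 141, and 142 FPKM in NOR and 144, 142, 84.8, and 108 in CAC. CAC replicates 1 and 2 lay within the NOR range and replicates 3 and 4 below it, and the log2 fold change was -0.47 (SE 0.262, FDR 0.282). Set against its receptor, Stac3 stood at 122% to 162% of the FPKM of Cacna1s in the NOR mice and at 78.0% to 89.0% in the CAC mice, ranges that did not overlap. Jph1, junctophilin, which holds the T-tubule and the reticulum together (ENSMUSG00000042686, chromosome 1, 16964560 to 17097889, minus strand), had 55.8 to 72.5 FPKM in NOR and 38.3 to 58.8 in CAC (log2 fold change -0.49, SE 0.232, FDR 0.203), with CAC replicates 3 and 4 the lowest of all 16 mice.

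Ryr1, the calcium release channel itself (ENSMUSG00000030592, chromosome 7, 29003344 to 29125179, minus strand), had 208, 161, 187, and 170 FPKM in NOR and 227, 186, 183, and 184 in CAC. The groups overlapped in part in FPKM. The NOR mice with 161 and 170 FPKM lay under every CAC mouse, and the CAC mouse with 227 FPKM lay above every NOR mouse. In CPM, scaled by TMM, the NOR mice (2434 to 3615) all lay within the CAC range (2268 to 3657). The log2 fold change of Ryr1 was -0.02 with a 95% interval from -0.49 to 0.45. Total-count scaling gave 0.10, so no direction is given for it. The counts do not separate strands as far as the sources state, and Ryr1, Cacna1s, Jph1, Atp2a1, Atp2a2, and Casq1 share exonic bases with an annotated gene on the opposite strand, whose reads cannot be told apart from theirs there.

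Of the pumps, Atp2a1 (ENSMUSG00000030730, chromosome 7, 126445858 to 126463108, minus strand) had 15464, 12512, 13540, and 11686 FPKM in NOR and 17417, 14436, 11648, and 15118 in CAC. Its log2 fold change was 0.02 with a 95% interval from -0.61 to 0.65. Atp2a2 (ENSMUSG00000029467, chromosome 5, 122453513 to 122502225, minus strand) had 63.7 to 131 FPKM in NOR and 69.4 to 170 in CAC (log2 fold change 0.10, 95% interval from -0.76 to 0.97). Neither was called, and under the alternatives the sign of either value changed. The FPKM of Atp2a2 was 0.470% to 0.868% of that of Atp2a1 in NOR and 0.481% to 1.13% in CAC, so the ranges overlapped and the fast pump made up nearly all pump mRNA in both groups.

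Sln, whose peptide binds SERCA and uncouples calcium transport from ATP hydrolysis (ENSMUSG00000042045, chromosome 9, 53850164 to 53854560, plus strand), was the gene with the largest fold change among the 10. It had 7.66, 4.44, 1.55, and 2.69 FPKM in NOR replicates 1 to 4 and 46.1, 24.4, 15.2, and 31.3 in CAC replicates 1 to 4. Every CAC mouse lay above every NOR mouse. The highest NOR mouse (replicate 1) and the 2 highest CAC mice (replicates 1 and 4) were those whose libraries held almost no lymphocyte markers, and they also had the highest slow fibre marker sums of their groups (3184 CPM in NOR, 2793 and 3070 CPM in CAC). The part of this in the Sln levels was not tested. The log2 fold change was 2.71 (SE 0.594, FDR 0.0218, exact permutation p = 0.0286). The call was lost without CAC replicate 1 (FDR 0.0533), NOR replicate 2 (0.0671), NOR replicate 3 (0.0523), or NOR replicate 4 (0.0530), and the log2 fold change ranged from 2.34 without CAC replicate 1 to 3.33 without NOR replicate 1. With all 16 libraries in 1 fit the call was also lost (2.71, FDR 0.0575). The mice labelled C57BL/6 alone gave 2.49 (FDR 0.0893) and those labelled BALB/c alone 3.31 (FDR 0.134).

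Relative to the pumps it inhibits, Sln remained a minor transcript. Its FPKM was 0.0114% to 0.0491% of the sum of Atp2a1 and Atp2a2 in the NOR mice and 0.129% to 0.262% in the CAC mice, ranges that did not overlap. The pump levels themselves overlapped between the groups.

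Among the calcium store proteins, 1 of 2 related genes differed. Casq1 and Casq2, which encode the fast and the cardiac calsequestrin, have separate promoters, and the 250 bases before the RefSeq start of each are shown because Casq1 was called and Casq2 was not (RefSeq, GRCm38.p6, Casq1 at chr1:172219896-172220145 on the minus strand and Casq2 at chr3:102086165-102086414 on the plus strand, both upstream of the annotated gene). Capitals mark CAGCTG, a form of E-box (CANNTG, a site type of myogenic factors), at position -195 from the start in Casq1, and a MEF2 site, searched by name, at -69 in Casq2.
Casq1: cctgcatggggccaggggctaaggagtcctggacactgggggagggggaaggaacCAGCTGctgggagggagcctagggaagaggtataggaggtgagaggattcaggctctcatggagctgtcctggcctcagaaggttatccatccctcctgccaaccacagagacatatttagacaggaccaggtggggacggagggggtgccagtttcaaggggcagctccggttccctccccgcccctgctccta
Casq2: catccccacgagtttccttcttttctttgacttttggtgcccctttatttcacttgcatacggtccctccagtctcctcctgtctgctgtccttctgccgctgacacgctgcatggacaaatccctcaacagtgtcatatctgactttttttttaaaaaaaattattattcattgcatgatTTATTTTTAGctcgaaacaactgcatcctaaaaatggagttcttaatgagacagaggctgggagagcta
Searched on both strands, CAGCTG occurred in 13.0%, an E-box of any form in 66.2%, and the MEF2 site in 2.92% of 32851 RefSeq promoter windows of that length. Windows were at hand for 6 of the 10 genes (Cacna1s, Ryr1, Atp2a1, Casq1, Casq2, and Pvalb), and CAGCTG occurred in those of 3 of them (Cacna1s, Atp2a1, and Casq1). A match describes letters in a window, not binding.

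Casq1 (ENSMUSG00000007122, chromosome 1, 172209894 to 172219868, minus strand) had 3459, 2733, 3114, and 2434 FPKM in NOR replicates 1 to 4 and 783, 968, 384, and 483 in CAC replicates 1 to 4. The highest CAC mouse lay well under the lowest NOR mouse, and both CAC mice labelled BALB/c lay under both labelled C57BL/6. The log2 fold change was -2.26 (SE 0.373, FDR 0.00858, exact permutation p = 0.0286), and the call held without each of the 8 mice in turn (log2 fold changes from -2.53 to -2.02). With each labelled strain alone the FDR was above the limit, with -1.88 (FDR 0.0538) in C57BL/6 and -2.84 (FDR 0.0952) in BALB/c.

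Casq2 (ENSMUSG00000027861, chromosome 3, 102086415 to 102146514, plus strand) had 39.8, 26.9, 21.4, and 19.3 FPKM in NOR and 33.0, 34.5, 25.5, and 53.5 in CAC. The groups overlapped, and the log2 fold change was 0.30 (SE 0.337, FDR 0.618). Within each mouse, Casq2 amounted to 0.688% to 1.15% of the FPKM of Casq1 in NOR and to 3.56% to 11.1% in CAC, and these ranges did not overlap. Casq1 thus remained the main calsequestrin transcript in every mouse. The plot of ratios within each mouse gives this and the other ratios.

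**Figure D2:**
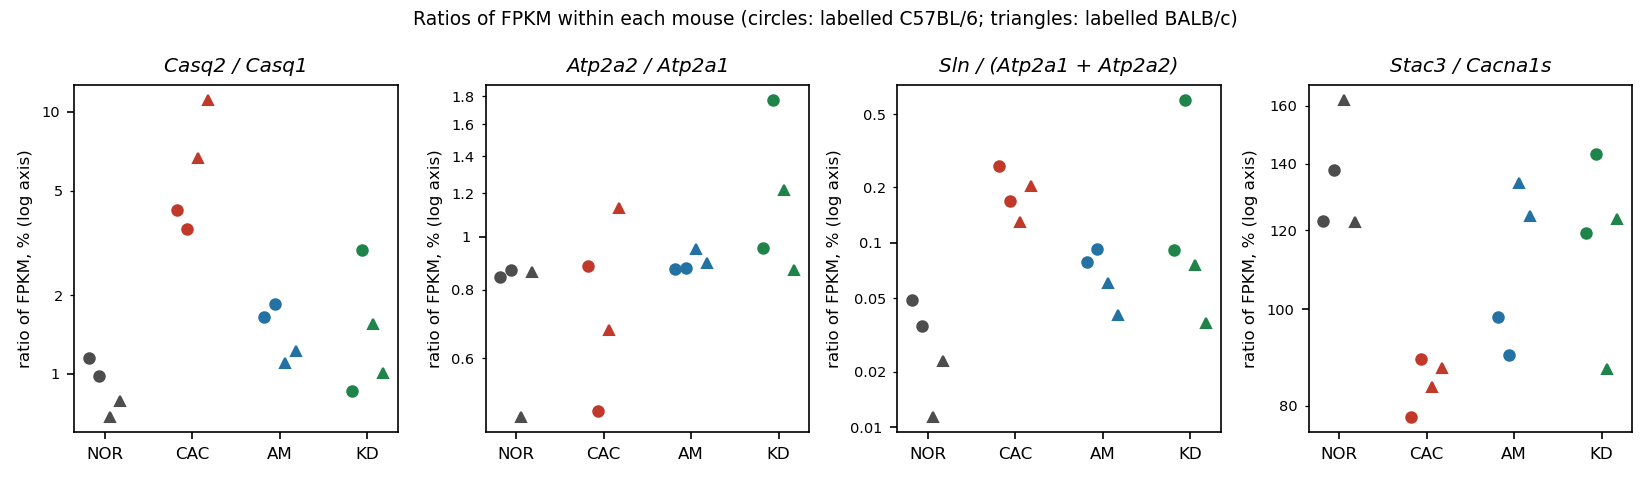
Ratios of FPKM within each mouse, in percent on log axes, for Casq2 to Casq1, Atp2a2 to Atp2a1, Sln to the sum of Atp2a1 and Atp2a2, and Stac3 to Cacna1s, with circles for mice labelled C57BL/6 and triangles for BALB/c. In the ratios of Casq2, Sln, and Stac3 the CAC mice do not overlap the NOR mice, while for Atp2a2 to Atp2a1 they overlap. In that ratio the AM mice (0.874% to 0.951%) lie above the NOR mice (0.470% to 0.868%), the lowest AM mouse only just.

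Pvalb, the cytosolic calcium buffer of fast fibres (ENSMUSG00000005716, chromosome 15, 78191114 to 78206400, minus strand), had 4993, 5166, 6509, and 5463 FPKM in NOR and 3028, 3330, 1498, and 658 in CAC. All CAC mice lay under all NOR mice (exact permutation p = 0.0286), but the log2 fold change of -1.45 (SE 0.490) had an FDR of 0.0848 and was not called. DESeq2 (FDR 0.00724), the labelled strain as a covariate (0.0417), and all 16 libraries in 1 fit (0.0391) placed it past the limits. CAC replicates 3 and 4, both labelled BALB/c, were the lowest of the 16 mice. The log2 fold change was -0.71 in the mice labelled C57BL/6 and -2.68 in those labelled BALB/c. The 250 bases before its first RefSeq start (RefSeq, GRCm38.p6, chr15:78206401-78206650, minus strand) are shown because it held the other MEF2 site among the 6 genes with windows, in capitals at -180.
Pvalb: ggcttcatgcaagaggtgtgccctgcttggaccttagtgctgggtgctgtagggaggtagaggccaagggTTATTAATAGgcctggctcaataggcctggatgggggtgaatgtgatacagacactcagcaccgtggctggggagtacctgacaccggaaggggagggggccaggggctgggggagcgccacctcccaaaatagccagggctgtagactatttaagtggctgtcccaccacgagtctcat

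Levels of other cell types and fibre types in the same libraries stand beside these differences. Of the slow fibre markers 0 of 7, and of the fast fibre markers 0 of 7, were DEGs in CAC vs. NOR by edgeR (0 and 1 of 7 at an unadjusted p under 0.05), with medians of 0.08 and -0.20 on the log2 fold change scale. The fast fibre markers summed to between 74805 and 104131 CPM in NOR and between 39877 and 90366 in CAC, where replicates 3 and 4 were the lowest. Myh4, the fastest myosin heavy chain, had 7130, 5463, 6042, and 5697 FPKM in NOR and 5776, 4773, 2592, and 2239 in CAC, and Myh7, the slow chain, had 186 to 476 and 181 to 467. The same 2 CAC mice that were lowest for Myh4 were thus lowest for Pvalb, Casq1, Stac3, Cacna1s, and Jph1. Myh1, another fast chain, did not follow Myh4 in CAC replicate 4. It had 869, 739, 585, and 607 FPKM in NOR and 832, 616, 539, and 867 in CAC. Cardiac muscle markers (3 genes, some at 0 in NOR) summed to between 6.72 and 23.7 CPM in NOR and between 7.73 and 206 in CAC. The 206 CPM was in CAC replicate 4, also the CAC mouse with the most Casq2 and Atp2a2 (53.5 and 170 FPKM). AM replicates 1 and 3 had 107 and 131 CPM. Erythrocyte markers were higher in 5 of 5 genes, all DEGs (sum 1002 to 1374 CPM in NOR and 3646 to 8714 in CAC), and neutrophil markers were DEGs in 3 of 4 (sum 3.38 to 20.9 and 79.1 to 182 CPM, with 1 marker at 0 in NOR replicate 2). Fibroblast markers summed to between 1525 and 1827 CPM in NOR and, without overlap, between 696 and 1178 in CAC, and 1 of 3, the collagen gene Col1a1, was a DEG (-3.61, FDR 0.000728). Of the tendon markers 1 of 4, Tnmd (-3.38, FDR 0.00214), and of the Schwann cell markers 1 of 3, Pmp2 (-1.90, FDR 0.0104), were DEGs, both lower, with sums that overlapped between the groups. Pecam1 among 3 endothelial markers (0.77, FDR 0.0126) and Des among 5 skeletal muscle markers (1.05, FDR 0.0117) were DEGs, both higher, as were the atrophy ligases Fbxo32 (2.58) and Trim63 (2.50). Most other markers of the endothelial and skeletal muscle lists went the other way. The endothelial markers were lower in 2 of 3 (median -0.08) and the skeletal muscle markers in 3 of 5 (median -0.30). The part of these markers in the changes of the calcium handling genes was not tested, and in bulk muscle fewer fibres of a type and less RNA per fibre cannot be told apart.

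AM vs. CAC asks what differed with amiloride in tumor-bearing mice. Casq1 was 3.30-fold higher in AM and was the only DEG among the 10 (1 of 10, with 3.66% of 14674 genes called, 1.63% higher and 2.03% lower), and 3 of 10 had an unadjusted p under 0.05 (21.7% of genes tested). Casq1 and Stac3 did not overlap between AM and CAC in CPM (2 of 10, both higher, where 15.3% of genes tested did not overlap and 6.05% were higher). In AM vs. CAC, 8 of 10 log2 fold changes were above 0 (50.9% of genes tested), with a median of 0.33 against 0.01 over all genes tested.

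Casq1 had 1394, 1875, 2227, and 2957 FPKM in AM replicates 1 to 4, all above the highest CAC mouse (968). The log2 fold change was 1.72 (SE 0.402, FDR 0.0484, exact permutation p = 0.0286). The FDR lay just inside the limit, and the call was lost on leaving out any 1 of the 8 mice (FDR from 0.0577 without CAC replicate 2 to 0.115 without AM replicate 4), while the log2 fold change stayed between 1.48 and 2.01. It was also lost with the labelled strain as a covariate (FDR 0.0782) and when every gene with a count was tested (0.0574). It was 0.82 (FDR 0.235) in the mice labelled C57BL/6 alone and 2.77 (FDR 0.175) in those labelled BALB/c alone.

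Stac3 had 152, 153, 214, and 203 FPKM in AM, all above the highest CAC mouse (127), and its log2 fold change of 0.87 (SE 0.255, FDR 0.0898) was not called. Sln had 11.3, 14.0, 9.31, and 5.61 FPKM in AM, all under the lowest CAC mouse (15.2) in FPKM. In CPM, scaled by TMM, AM replicate 2 (18.7) lay above CAC replicate 3 (16.2), and the log2 fold change of -1.53 (SE 0.402, FDR 0.0671, exact permutation p = 0.0571) was not called. DESeq2, which called 7.49% of genes here, called both (FDR 0.0120 for Stac3 and 0.00248 for Sln), and Sln was called without CAC replicate 3 (FDR 0.0394).

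Pvalb had 3151, 4857, 3955, and 5958 FPKM in AM, with replicate 1 inside the CAC range, and a log2 fold change of 1.10 (SE 0.518, FDR 0.269). The log2 fold changes of Cacna1s, Jph1, and Ryr1 were 0.47 (FDR 0.295), 0.38 (FDR 0.384), and 0.27 (FDR 0.449). Atp2a1 and Atp2a2 stood at 0.03 (95% interval from -0.50 to 0.56) and 0.19 (from -0.52 to 0.90), and Casq2 at -0.25 (FDR 0.663). Cacna1s was tightly grouped in AM, with 154 to 170 FPKM, against 84.8 to 144 in CAC, and the CPM values of the groups overlapped. The 7 slow and 7 fast fibre markers held 0 DEGs in this comparison, with none at an unadjusted p under 0.05, and the erythrocyte markers summed to between 967 and 16085 CPM in AM. Col1a1, Tnmd, and Pmp2 were DEGs here too, all higher in AM (3.02, 2.49, and 1.99), while Des (-0.92) and both atrophy ligases, Fbxo32 and Trim63 (-1.94 and -2.42), were DEGs lower in AM, and the fibroblast markers summed to between 1244 and 1706 CPM in AM, above the CAC mice. Of the 5 skeletal muscle markers, Des among them, 3 were higher in AM and 2 lower (median 0.21). The part of these markers in the values of the calcium handling genes was not tested. With the 11 libraries that held lymphocyte markers alone (4 AM and 2 CAC mice), 0 of 10 and 0 of 41 wider genes were DEGs by edgeR, against 0.119% of genes tested, and Casq1 stood at 1.71 (FDR 0.213), Stac3 at 0.94 (FDR 0.258), Sln at -0.91 (FDR 0.304), and Pvalb at 0.96 (FDR 0.382).

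**Figure D3:**
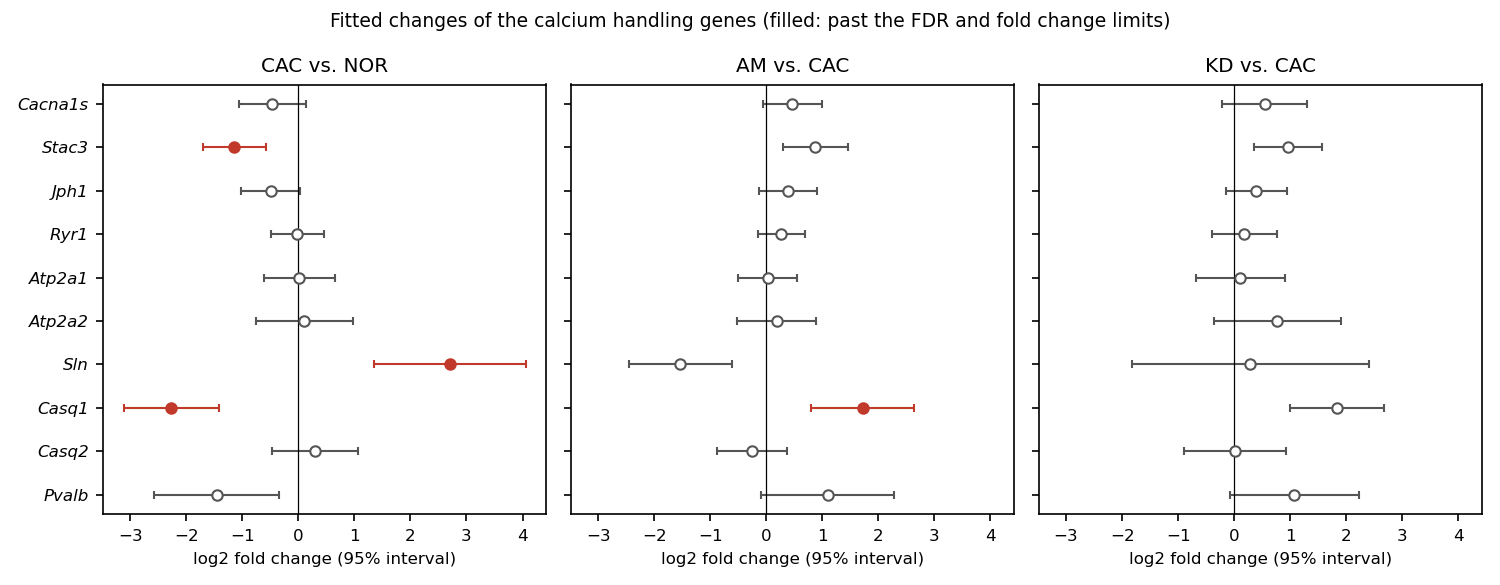
Fitted log2 fold changes (x axis) with 95% intervals of the 10 genes in the 3 comparisons among NOR, CAC, AM, and KD mice described in turn, filled and red where the gene was a DEG. Sln (2.71), Casq1 (-2.26), and Stac3 (-1.14) are filled in the first comparison, Casq1 (1.72) in the second, and none in the third.

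KD vs. CAC asks what differed when the tumor cells carried the Rab27 knock-down. None of the 10 genes was a DEG by edgeR (0 of 10, with 0.00685% of 14593 genes called), while 2 of 10, Casq1 and Stac3, had an unadjusted p under 0.05 (11.1% of genes tested) and did not overlap between the groups, both higher (7.29% of genes tested, 3.71% higher). All 10 log2 fold changes were above 0, against 50% of genes tested, and 7 of 10 were above 0 without KD replicate 3. The slow fibre markers were above 0 in 7 of 7 (median 0.77) and the fast fibre markers in 7 of 7 (median 0.17), with 0 DEGs in either list and 1 and 0 at an unadjusted p under 0.05. Both atrophy ligases were lower in KD without overlap (median -2.01, 2 of 2 at an unadjusted p under 0.05). Of 3 fibroblast markers 1 was higher without overlap (2.80) and 2 were lower. None of these was a DEG, and the part of these markers in the values of the 10 genes was not tested. DESeq2 placed Casq1 and Stac3 past the limits, where it called 2.15% of the genes to which it gave an adjusted p. AM vs. CAC and KD vs. CAC share the 4 CAC mice, so their values are given side by side and are not independent.

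Casq1 had 2223, 1679, 2413, and 2533 FPKM in KD replicates 1 to 4, all above the CAC mice. The log2 fold change was 1.83 (SE 0.368, FDR 0.231) beside 1.72 in AM vs. CAC. Stac3 had 158, 175, 208, and 189 FPKM in KD and a log2 fold change of 0.96 (SE 0.269, FDR 0.279) beside 0.87. Pvalb had 3716, 4050, 3952, and 5312 FPKM, all above the highest CAC mouse (3330) in FPKM but not in TMM-scaled CPM, where KD replicate 1 (3140) lay under CAC replicate 2 (3253), and its log2 fold change was 1.08 (SE 0.507, FDR 0.478). Without KD replicate 3, the library with 0 Y-linked counts, the values were 1.74 (FDR 0.398) for Casq1, 0.85 (FDR 0.454) for Stac3, and 1.08 (FDR 0.614) for Pvalb. With the 11 libraries that held lymphocyte markers alone (2 KD and 2 CAC mice) they were 1.75 (FDR 0.310), 0.78 (FDR 0.461), and 0.86 (FDR 0.581), and Sln stood at -1.46 (FDR 0.288).

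Sln did not separate in KD. It had 10.3, 94.0, 14.2, and 4.68 FPKM in KD replicates 1 to 4, so that replicate 2 was the highest of the 16 mice and the other 3 lay below the lowest CAC mouse (15.2) in FPKM. In TMM-scaled CPM, KD replicate 3 (21.3) lay above CAC replicate 3 (16.2). The log2 fold change was 0.29 with a 95% interval from -1.82 to 2.40, and it was -1.55 (FDR 0.224) without KD replicate 2 and 0.53 (FDR 0.926) without KD replicate 3. The library of KD replicate 2 also held the highest slow fibre marker sum (6411 CPM, against 1004 to 4361 in the other 15), the highest level of Atp2a2 (275 FPKM), the highest erythrocyte marker sum (21196 CPM), and the highest sum of the atrophy ligases Fbxo32 and Trim63 in KD (1632 CPM, against 157 to 593). The part of these in its Sln level was not tested.

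Atp2a2 had 106, 275, 226, and 110 FPKM in KD (SD 84.8, against 9.64 to 51.6 in the other groups) and a log2 fold change of 0.77 (SE 0.495, FDR 0.615). KD replicates 2 and 3 were also the 2 highest mice for Myh7, with 900 and 792 FPKM against 181 to 476 in all others. The same 2 libraries had the lowest macrophage marker sums of the 16 (41.4 and 23.4 CPM, against 203 and 189 in KD replicates 1 and 4) and low fibroblast marker sums (711 and 544 CPM, against 1563 and 1757), beside almost no lymphocyte markers. Casq2 stood at 0.02 (95% interval from -0.90 to 0.93), Atp2a1 at 0.11 (from -0.69 to 0.91), and Ryr1 at 0.18 (from -0.40 to 0.76) on the log2 fold change scale. Cacna1s and Jph1 had 0.54 (FDR 0.594) and 0.40 (FDR 0.579). Without KD replicate 3, which had the highest Cacna1s level of the 16 mice (239 FPKM), the values were 0.23 for Cacna1s, 0.34 for Jph1, 0.62 for Atp2a2, -0.033 for Ryr1, -0.067 for Atp2a1, and -0.069 for Casq2, none of them called, so that the sign turned for Ryr1, Atp2a1, and Casq2. With KD replicates 1 and 4 alone, an alternative chosen after seeing the data, the sign turned for Ryr1, Atp2a1, Atp2a2, Sln, and Casq2.

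Against the normal muscle, 0 of the 10 genes were DEGs in AM vs. NOR and in KD vs. NOR by edgeR, and 0 by DESeq2, where 0% of all genes tested were called by edgeR, and 0.504% and 0.216% by DESeq2. At an unadjusted p under 0.05, 1 of 10 stood out in each, Sln, against 9.19% and 3.54% of genes tested. So did 5 of 5 erythrocyte markers in both (medians 2.45 and 2.80) and 3 and 4 of 4 neutrophil markers, all higher. Slow fibre markers were higher in 3 of 7 in AM (median -0.01) and in 7 of 7 in KD (median 0.89). The part of these markers in the values of the 10 genes was not tested. Sln was 1.19 higher in AM and 3.02 higher in KD on the log2 scale (FDR 0.535 and 0.999), the latter 1.19 without KD replicate 2. Casq1 was lower by -0.53 and -0.42 (FDR 0.565 and 0.999), with 95% intervals from -1.15 to 0.08 and from -0.90 to 0.06, so that these data do not set its level in the treated groups apart from normal or show it to be equal. Pvalb stood at -0.35 and -0.36 and Stac3 at -0.26 and -0.17. Without KD replicate 3, the KD vs. NOR values were 3.26 for Sln, -0.51 for Casq1, -0.37 for Pvalb, and -0.28 for Stac3, with 0 of 10 called. In AM vs. KD 0 of 10 were DEGs (0 also at an unadjusted p under 0.05, against 1.11% of genes tested), and Casq1 differed by -0.11 with a 95% interval from -0.73 to 0.51.

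Casq2 amounted to 1.11% to 1.85% of Casq1 in AM, under every CAC mouse, and to 0.861% to 2.96% in KD, also under every CAC mouse. Sln amounted to 0.0404% to 0.0922% of the summed pumps in AM, under every CAC mouse, and to 0.0367% to 0.594% in KD. Stac3 stood at 90.0% to 134% of Cacna1s in AM, just above the CAC mice, and at 87.1% to 143% in KD, where replicate 3 lay within the CAC range. The ratio of Atp2a2 to Atp2a1 was 0.874% to 0.951% in AM and 0.868% to 1.77% in KD, both overlapping CAC. NOR replicates 1, 2, and 4 had 0.845%, 0.868%, and 0.863%, and replicate 3 had 0.470%. The lowest AM mouse thus lay only just above the highest NOR mouse, and the lowest KD mouse was level with that NOR mouse after rounding.

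Since strain and tumor line changed together, whether the changes differed between the labelled strains was tested as an interaction. None of the 10 genes passed an FDR of 0.05 by edgeR for CAC against NOR or for AM or KD against CAC, and none did among all genes tested. At an unadjusted p under 0.05 there were 1, 5, and 4 of the 10, against 4.89%, 12.4%, and 5.65% of genes tested, and DESeq2 placed 1, 4, and 2 past the FDR limit, against 0.745%, 2.88%, and 0.657% of the genes to which it gave an adjusted p. The largest difference in CAC vs. NOR was that of Pvalb, whose log2 fold change was 1.92 lower in BALB/c (interaction -1.92, SE 0.489, FDR 0.758). In AM vs. CAC the interaction of Casq1 was 1.96 (SE 0.415, FDR 0.269), that of Stac3 1.27 (SE 0.276, FDR 0.269), and that of Pvalb 2.19 (SE 0.608, FDR 0.331), each with the larger positive change in BALB/c, where the CAC level was lower. The KD vs. CAC interactions were 1.61 for Casq1, 2.07 for Pvalb, 1.46 for Cacna1s, and 0.94 for Jph1 (FDR 0.854 for each). In KD vs. CAC, Casq1 stood at 1.15 with C57BL/6 alone and 2.74 with BALB/c alone, and Pvalb at 0.32 and 2.38.

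The wider set of calcium handling genes, 41 genes listed by role, held 6 DEGs in CAC vs. NOR (2 higher and 4 lower, against 4.32% and 5.13% of all genes), with a median log2 fold change of -0.33. The count was 2 with the 11 libraries that held lymphocyte markers alone, 1 with C57BL/6 alone, and 0 with BALB/c alone. Higher were Cacng1, the gamma subunit of the DHPR (311 to 647 mean CPM from NOR to CAC, log2 fold change 1.05, FDR 0.00990), and Tmem38b, a counter-ion channel of the reticulum (51.5 to 119 mean CPM, 1.20, FDR 0.00644). Lower were Jph2, a second junctophilin (-1.34, FDR 0.0203), Ank1, an ankyrin that ties the reticulum to the sarcomere (-1.34, FDR 0.0214), Camk2a, a calcium-dependent kinase (-1.20, FDR 0.0185), and Calm2, 1 of 3 calmodulin genes listed (-0.95, FDR 0.00461). In 11 of 41, these 6 among them, the groups did not overlap (2 higher and 9 lower), where 23.3% of all genes tested did not (12.5% higher and 10.8% lower). Of the 10 release channel partners 1 was called, of the 6 genes of the triad and T-tubule 2, of the 3 DHPR subunits 1, of the 5 luminal and counter-ion proteins 1, of the 6 calcium-dependent enzymes 1, and none of the 4 pumps and regulators, 5 store-operated entry and extrusion genes, or 2 mitochondrial uptake genes.

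In AM vs. CAC, Cacng1 was lower (-0.80, FDR 0.0382), Tmem38b was lower (-1.14, FDR 0.0120), and Calm2 was higher (0.76, FDR 0.0153), 3 of 41 beside 3.66% of all genes. Jph2 (1.04, FDR 0.0671), Ank1 (0.95, FDR 0.116), and Camk2a (0.76, FDR 0.145) were not called. In KD vs. CAC 0 of 41 were DEGs by edgeR (8 at an unadjusted p under 0.05, against 11.1% of genes tested, 2 by DESeq2, against 2.15%, and 0 by edgeR without KD replicate 3), with values of -0.79, -0.999, 0.82, 1.03, 1.07, and 0.95 for Cacng1, Tmem38b, Calm2, Jph2, Ank1, and Camk2a. Leaving out 1 mouse changed the counts to between 3 (without NOR replicate 3) and 7 in CAC vs. NOR and to between 1 (without CAC replicate 1) and 3 in AM vs. CAC. Of the DHPR subunits, Cacng1 was higher in CAC, while Cacna1s, Cacnb1, and Cacna2d1 were not called.

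**Figure D4:**
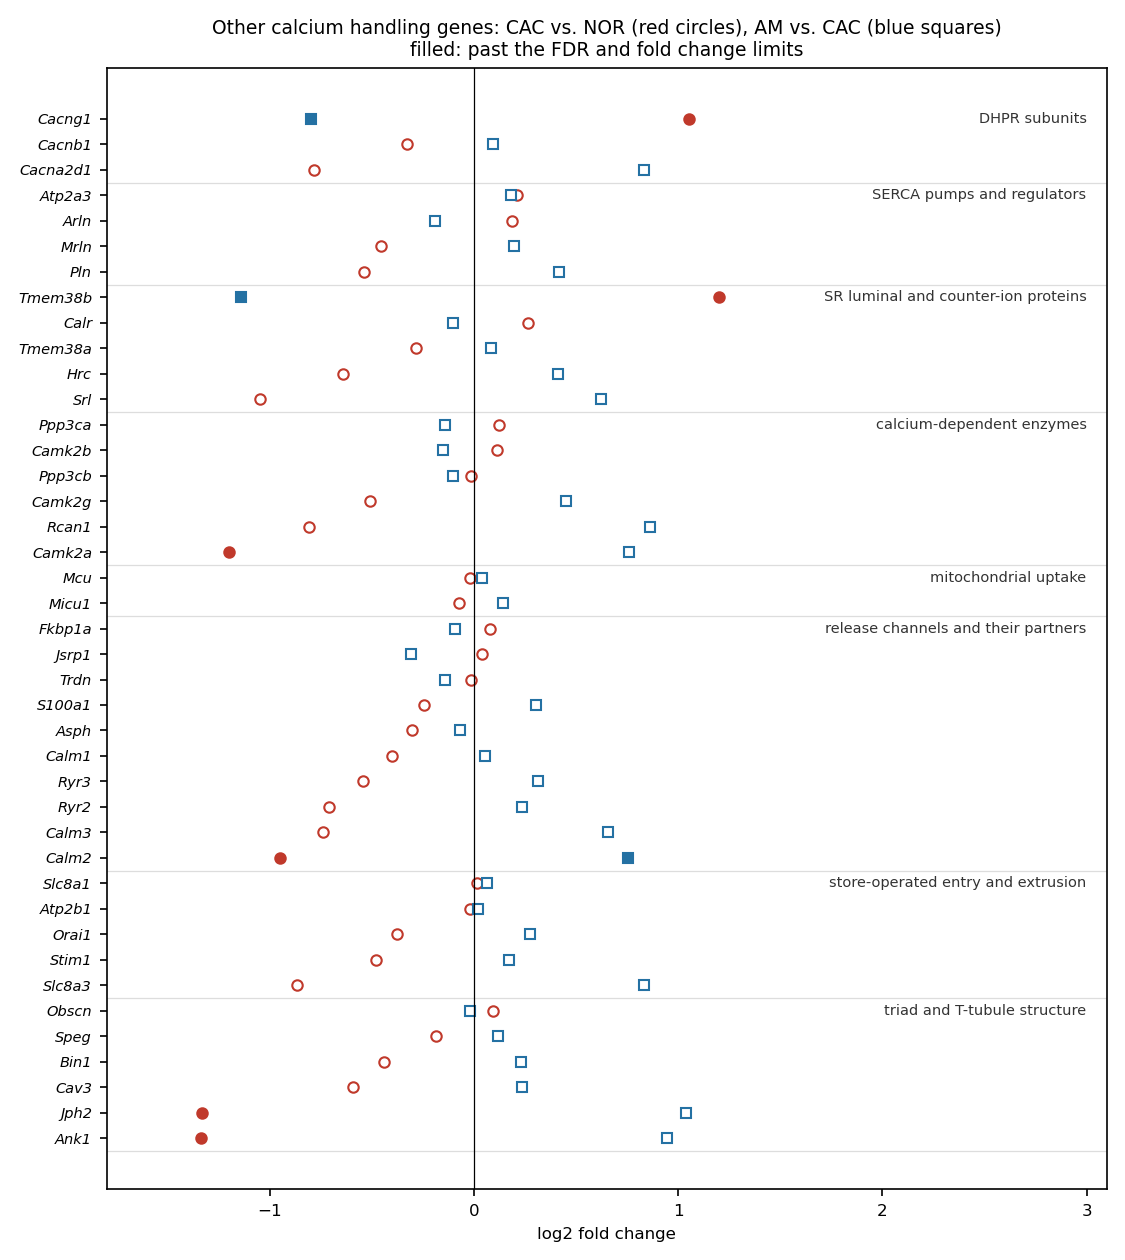
Log2 fold changes (x axis) of the 41 other calcium handling genes, grouped by role, in CAC vs. NOR (red circles) and AM vs. CAC (blue squares), filled where the gene was a DEG. Cacng1 and Tmem38b are filled on opposite sides in the 2 comparisons, and Calm2 likewise with the other sign.

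The genes whose log2 CPM was most like that of each member over the 16 libraries were found among 13189 genes. For Stac3 they were Ak1 (Pearson r = 0.99) and Atp1b2 (0.98), for Casq1 Mdga1 (0.99) and Pkm (0.98), for Pvalb Ramp1 (0.96) and Myl1 (0.95), and for Sln Sf3b5 (0.93) and Bmp4 (0.92). For Atp2a2 they were the slow troponins Tnni1 (0.95) and Tnnt1 (0.95), for Casq2 Inpp5a (0.94) and Cox6a2 (0.92), and for Atp2a1 Tmem63b (0.94) and Ptov1 (0.92). For Cacna1s they were Setd7 (0.93) and Ogdh (0.92), for Jph1 Lsmem1 (0.96) and Msrb3 (0.95), and for Ryr1 Ikbkap (0.92) and Usp19 (0.89). The libraries share their groups and scaling, so these values describe likeness across the groups.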

How the data were processed

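Oligo(dT)-enriched RNA of 16 gastrocnemius samples was sequenced on an Illumina HiSeq2500. The authors deposited 1 table of raw read counts and FPKM per gene and library; per the submitters' processing notes fastp, Bowtie2, HISAT2, and StringTie 1.3.1 and the builds mm9 and GRCm38 were used, with roles, counting settings, and strandedness not given in the sources used here. The deposited FPKM were used for levels and ratios, since they follow counts over library total with 1 length per gene, and the deposited counts for tests.

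The main fit of each comparison was edgeR 4.0.16 (quasi-likelihood F test, TMM, filterByExpr at min.count 10 and min.total.count 15) on the 8 libraries of its groups without covariates, with Benjamini-Hochberg FDR over all genes tested; SE is the log2 fold change over the square root of F. The authors' own tool, NOISeq, was not at hand, and their fold change and FDR limits were kept. CPM per mouse were TMM-scaled over 16 libraries. Single genes were also tested by a two-sided exact permutation test, and ratios, lists, and likeness carry no test. DESeq2 1.42.0, limma-voom (limma 3.58.1), other scalings and filters, strain or replicate block in the fit, all 16 libraries in 1 fit, each strain alone, and leaving out each mouse were alternatives.

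The members and lists were chosen with earlier results of these data known. Named are all 10 members, the wider list's genes called in any of the 3 main comparisons, the 2 genes most like each member, and Myh7 and Myh4; further genes were named after their values were seen. Positions are from GENCODE M21 (GRCm38), in which 21905 of 21923 identifiers were found. Replicates are separate mice per the labels; no libraries agreed within sampling noise (lowest chi-square per degree of freedom 69.3). Sln, the lowest member, had 103 to 5855 counts per library. The labels' protocol and a supplement of the study give BALB/c mice of both sexes, while the methods of its main text give males, and the sex of each mouse is not given in the sources used here.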

Additional observations from a re-analysis of the deposited data

Results flagged for a closer look

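In 40 sets of 4 mice (10 genes in 4 groups), 2 held a mouse whose gap to its nearest neighbour, divided by the group's range, was above Dixon's 95% critical value, and chance flags about 1 in 20 such sets. Cacna1s in NOR replicate 1 had 1195 CPM (gap ratio 0.902), above the other NOR mice, and without this mouse its CAC vs. NOR log2 fold change, -0.47 with it, was -0.29 (edgeR's quasi-likelihood FDR 0.531), not called in either case. Sln in KD replicate 2 had 145 CPM (gap ratio 0.891), above all other mice, and the KD vs. CAC log2 fold change of Sln was 0.29 with it and -1.55 without it.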

How the results depend on the processing

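Of the single-gene values recomputed under the alternatives, 835 kept their direction and side of the limits, 53 reversed, 29 lost a call, and 9 gained one. With each labelled strain alone (2 against 2 mice), 0 of the 10 genes passed in CAC vs. NOR and 0 in AM vs. CAC, and the wider list held 1 (C57BL/6) and 0 (BALB/c) in CAC vs. NOR and 0 in AM vs. CAC. DESeq2 gave, in CAC vs. NOR, 11 of the wider list and 1 interaction with strain among the 10 genes. For AM vs. CAC it gave 3 of 10, 9 of the wider list, and 4 interactions, and for KD vs. CAC 2, 2, and 2. Over all genes it called 12.8%, 7.49%, and 2.15% in these comparisons, and 0.745%, 2.88%, and 0.657% as interactions. AM vs. CAC gave 0 of 10 when every gene with a count was tested and with strain as a covariate, and 1 of 41 at a fold change of at least 2. All 16 libraries in 1 fit gave 1 of 10 and 1 of 41 in KD vs. CAC, against 0.953% of all genes. The 11 libraries with lymphocyte markers alone, chosen after seeing the data, gave 1 of 10 and 2 of 41 in CAC vs. NOR and 0 and 0 in AM vs. CAC, and turned Atp2a1 (-0.040) and Atp2a2 (-0.41) in CAC vs. NOR, Casq2 (0.076) in AM vs. CAC, and Atp2a1 (-0.15), Sln (-1.46), and Casq2 (-0.44) in KD vs. CAC. Each strain or the 11 libraries alone leave fewer mice, and the cause of the other shifts was not tested. Total counts alone moved the median of all genes to 0.14 in CAC vs. NOR and -0.11 in KD vs. CAC.

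In no comparison was the correlation above 0.1 in all 4 pairs, so the replicate numbers were not taken to pair the mice: the correlation of same-numbered deviations ran from -0.23 to 0.68 in CAC vs. NOR, from -0.56 to 0.07 in AM vs. CAC, from -0.70 to -0.30 in KD vs. CAC, and from 0.08 to 0.58 in AM vs. KD. With the replicate block, 3 of 10 passed in CAC vs. NOR, 0 of 10 (Casq1 1.79, FDR 0.213) and 0 of 41 in AM vs. CAC by edgeR's quasi-likelihood test, and the log2 fold changes in KD vs. CAC turned to -0.72 for Sln and -0.073 for Casq2, and no call changed otherwise.

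The signs that turned were those of uncalled genes. In CAC vs. NOR they were Atp2a1 with upper-quartile scaling (-0.026) and BALB/c alone (-0.076), Ryr1 with total counts (0.10) and C57BL/6 alone (0.12), and Atp2a2 (-0.13) and Casq2 (-0.041) with C57BL/6 alone. In AM vs. CAC they were Atp2a1 with total counts (-0.0096) and, with C57BL/6 alone, Jph1 (-0.12) and Atp2a1 (-0.22). In KD vs. CAC total counts turned Atp2a1 (-0.019) and Casq2 (-0.15), limma-voom Sln (-0.71) and Casq2 (-0.060), strain as a covariate Sln (-0.16), C57BL/6 alone Cacna1s (-0.16), Jph1 (-0.022), Ryr1 (-0.25), and Atp2a1 (-0.21), BALB/c alone Sln (-1.04) and Casq2 (-0.10), and KD replicates 1 and 4 alone Ryr1 (-0.050), Atp2a1 (-0.36), Atp2a2 (-0.19), Sln (-2.08), and Casq2 (-0.76). Stac3 turned with BALB/c alone in AM vs. NOR (0.067) and KD vs. NOR (0.054).

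Leaving out 1 mouse at a time gave 1 to 3 of 10 genes and 3 to 7 of 41 in CAC vs. NOR, and 0 to 1 and 1 to 3 in AM vs. CAC. The log2 fold changes ran from -0.15 to 0.13 for Ryr1, from -0.12 to 0.19 for Atp2a1, and from -0.11 to 0.35 for Atp2a2 in CAC vs. NOR, from -0.12 to 0.17 for Atp2a1 and from -0.0074 to 0.40 for Atp2a2 in AM vs. CAC, and from -0.033 to 0.31 for Ryr1, from -0.067 to 0.27 for Atp2a1, from -1.55 to 0.67 for Sln, and from -0.34 to 0.25 for Casq2 in KD vs. CAC.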
